A study of Mus musculus with 16 samples.

Results

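The baseline transcriptome of bone marrow stroma was described in 4 RNA-seq libraries from heterozygous Townes mice (SA), numbered SA replicates 1 to 4. The study holds 8 libraries, the other 4 from homozygous sickle mice (SS), which were not used here. The 4 SA columns of the raw count table were taken by their names. SA mice carry the human alpha globin gene on both alleles (allele Hbatm1(HBA)Tow, hα/hα) with 1 copy of the human sickle beta globin gene (βS) and 1 of the normal human beta globin gene (βA). They therefore share the human alpha globin alleles and a sickle allele with the SS mice, and the submitters call them controls. Neither age nor sex nor a treatment of the mice is stated in the labels. Marrow was digested with enzymes, and viable singlets that lacked CD45, Ter119 and CD31 and carried CD51 and CD140a were sorted, which the labels name mesenchymal stem cells. Libraries were prepared from total RNA with a kit for low input, and each library was read on 2 lanes that the deposited columns join.

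Marrow stromal cells positive for CD51 (integrin alpha V, Itgav) and CD140a (PDGF receptor alpha, Pdgfra) overlap widely with the CXCL12-abundant reticular cells, which lie around the sinusoids, carry the leptin receptor (Lepr) and are a main source of the chemokine CXCL12 and of stem cell factor (Kitl) for blood stem cells. The same cells express adiponectin (Adipoq) and are progenitors of marrow adipocytes and of osteoblasts. The transcription factors EBF3, EBF1 and FOXC1 maintain their identity.

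The promoters of Cxcl12, Lepr and Adipoq are printed because these were the 3 markers of highest level per length in the results that follow. Each run holds the 250 bases before the RefSeq gene start, 5′ to 3′ on the plus strand of GRCm38.p6 that all 3 genes use, with capitals for a TATAAA or CCAAT box on either strand.
Cxcl12, chr6:117168285-117168534: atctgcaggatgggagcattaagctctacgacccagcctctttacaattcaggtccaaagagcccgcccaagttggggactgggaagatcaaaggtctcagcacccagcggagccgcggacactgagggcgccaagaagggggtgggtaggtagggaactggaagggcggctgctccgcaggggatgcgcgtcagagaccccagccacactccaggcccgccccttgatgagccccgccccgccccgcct
Lepr, chr4:101717157-101717406: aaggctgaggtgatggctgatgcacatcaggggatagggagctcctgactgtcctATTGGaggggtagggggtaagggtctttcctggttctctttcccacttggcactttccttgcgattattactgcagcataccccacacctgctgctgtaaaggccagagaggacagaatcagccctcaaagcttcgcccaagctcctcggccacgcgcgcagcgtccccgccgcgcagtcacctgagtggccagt
Adipoq, chr16:23146286-23146535: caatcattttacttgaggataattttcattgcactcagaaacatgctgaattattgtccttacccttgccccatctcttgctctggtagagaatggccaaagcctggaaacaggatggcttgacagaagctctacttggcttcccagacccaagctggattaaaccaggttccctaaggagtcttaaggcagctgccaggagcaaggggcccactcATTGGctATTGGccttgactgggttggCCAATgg
None of the 3 windows held TATAAA, which 12.4% of the 32851 windows of the RefSeq table hold on either strand, whereas the Kitl window held it 25 bases before the start. The Lepr window held CCAAT on the minus strand (printed as ATTGG) 195 bases before the start. The Adipoq window held CCAAT on the plus strand 7 bases and on the minus strand 34 and 27 bases before the start, and 33.8% of all windows hold it at least once. The letters CCCNNGGG, the core of the site that EBF factors bind, were in none of the 7 windows of the 6 markers (Lepr has 2 starts) and in 11.8% of all windows. The Cxcl12 window held none of the 3 motifs. These matches are descriptions of letters, and binding was not measured. GC content was 64.4% for Cxcl12, 58.4% for Lepr, 69.2% for Kitl and 48.8% for Adipoq, against a median of 52.4% over all windows.

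SA replicate 1 had 24797857 counts, replicate 2 had 27829565, replicate 3 had 30305254 and replicate 4 had 27780444, and values are given in that order throughout. Levels are counts scaled to a library total of 1000000 (CPM), with mean ± SD over the 4 libraries. Of 52459 genes in the table, 12173 reached 1 CPM in all 4 libraries, of which 10912 were nuclear protein-coding genes and 404 long noncoding RNAs. A further 6811 reached it in 1 to 3 libraries, and 24446 had no count in any. The floor, 3 counts in a library, was 0.0990 to 0.121 CPM. CPM compares a gene between libraries. For comparisons between genes, counts were divided by exon length and scaled to 1000000 over nuclear protein-coding genes (TPM), and ranks are ranks of mean TPM among 21568 such genes. No test was made, since the libraries form 1 group. The titles number the libraries, and no label says whether they came from separate animals, so the SD measures the spread between these libraries. No library repeated another, since the rank correlation between any pair over the genes detected in all was at most 0.894.

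The 2 ribosomal RNAs of the mitochondrion took 17.7% ± 1.41 of all counts (SD, n = 4), the other mitochondrial transcripts 1.71% ± 0.135 and the 87 cytosolic ribosomal protein genes 1.52% ± 0.158. Genes of the extracellular matrix lists (161 genes) took 6.14% ± 2.43. The stromal class, genes of the CXCL12-abundant, niche, adipogenic and osteoblast lists not already counted (87 genes), took 4.65% ± 1.74. Members found only in other stromal lists, such as transcription factors and receptors, fall under the remaining protein-coding genes. The matrix share was 4.08, 3.99, 8.42 and 8.05% in replicates 1 to 4 and the stromal share 3.73, 2.68, 5.80 and 6.39%. Genes of the blood cell lists (184 genes) ran the other way, with 5.17, 5.67, 1.81 and 1.04%, and a mean of 3.42% ± 2.33. The matrix and stromal shares were thus larger, and the blood share smaller, in replicates 3 and 4 than in replicates 1 and 2. The remaining protein-coding genes held 60.3% ± 2.18, long noncoding RNAs 2.62% ± 0.290, other RNA classes 1.43% ± 0.0595, and symbols with no match in the annotation 0.574% ± 0.0516. The 95% Wilson interval of each share was at most 0.0190 percentage points to either side and covers counting error only. In sorted stroma measured in bulk, a larger share can come from more cells of a type or from more RNA per cell, and these cannot be told apart.

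**Figure D1:**
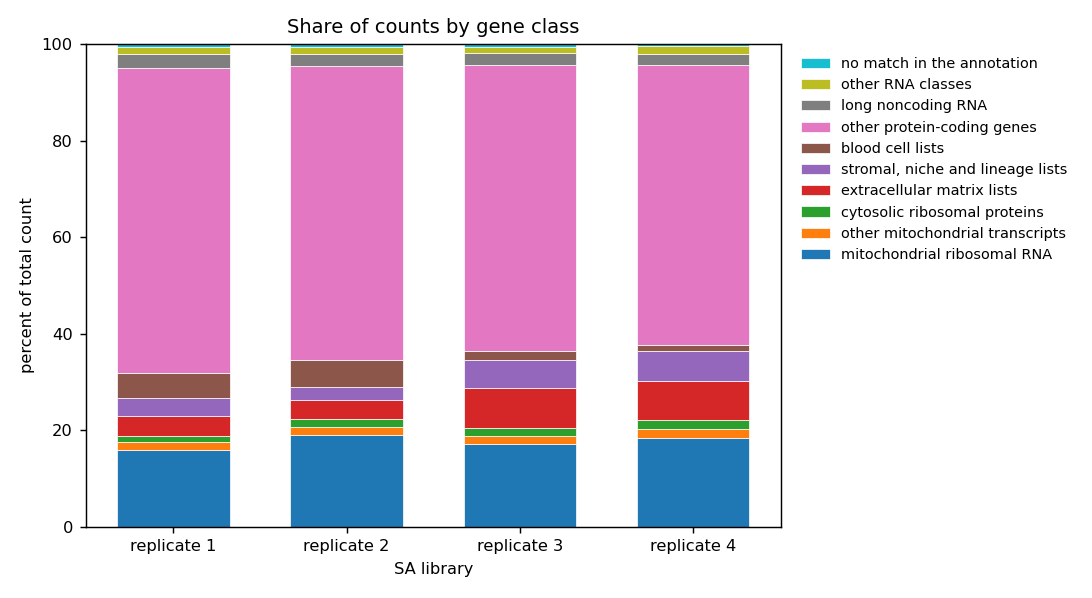
Share of the total count taken by each of 10 gene classes (stacked bars, percent, axis from 0 to 100) in SA replicates 1 to 4. The blood cell lists take 5.17% and 5.67% in replicates 1 and 2 and 1.81% and 1.04% in replicates 3 and 4, and the matrix lists 4.08%, 3.99%, 8.42% and 8.05%.

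All 6 stromal markers were detected in every library. Cxcl12 (chr6:117168535-117181367, plus strand) was at 15945, 10866, 23124 and 22627 CPM (18140.5 ± 5851), the highest mean level of any nuclear gene. Only the 2 mitochondrial ribosomal RNAs had more counts in the mean, although S100a9 was above Cxcl12 in replicate 2. Per length, Cxcl12 ranked 7, 10, 5 and 4 in replicates 1 to 4, and 5 by its mean of 11403 TPM. It was lowest in replicate 2 and highest in replicates 3 and 4, with 2.13 times as much in the highest library as in the lowest. Lepr (chr4:101717404-101815352), the leptin receptor by which the cells are often traced, was at 1789.8, 1136, 2582 and 2722 CPM (2058 ± 739) and ranked 46. Adipoq (chr16:23146536-23158028), the adipocyte hormone, was at 304, 176, 516 and 459 CPM (364 ± 154) and ranked 49. Kitl (chr10:100015630-100100416), the KIT ligand, was at 787, 557, 1009.6 and 1144 CPM (874 ± 258) and ranked 106. These 4 were thus among the 106 protein-coding genes of highest level per length, and each was lowest in replicate 2.

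The genes of the sorted antigens were lower per length. Pdgfra (chr5:75152292-75198215) was at 279, 174, 469 and 439 CPM (340.3 ± 139) and ranked 758, and Itgav (chr2:83724397-83806916) at 271, 274, 372 and 418 CPM (334 ± 73.1) and ranked 864. Of the antigens that the gate removed, CD45 is encoded by Ptprc, a phosphatase of all nucleated blood cells, which was at 802, 760.0, 206 and 122 CPM (472 ± 359). Pecam1, which encodes CD31 of endothelium and platelets, was at 48.1, 24.6, 15.2 and 4.14 CPM (23.01 ± 18.7). Both were detected in every library and lowest in replicate 4. Per length, Ptprc was at 206, 194, 60.6 and 35.98 TPM and Pdgfra at 131, 81.2, 252 and 237 TPM, so that Ptprc was above Pdgfra in replicates 1 and 2 and below it in replicates 3 and 4.

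**Figure D2:**
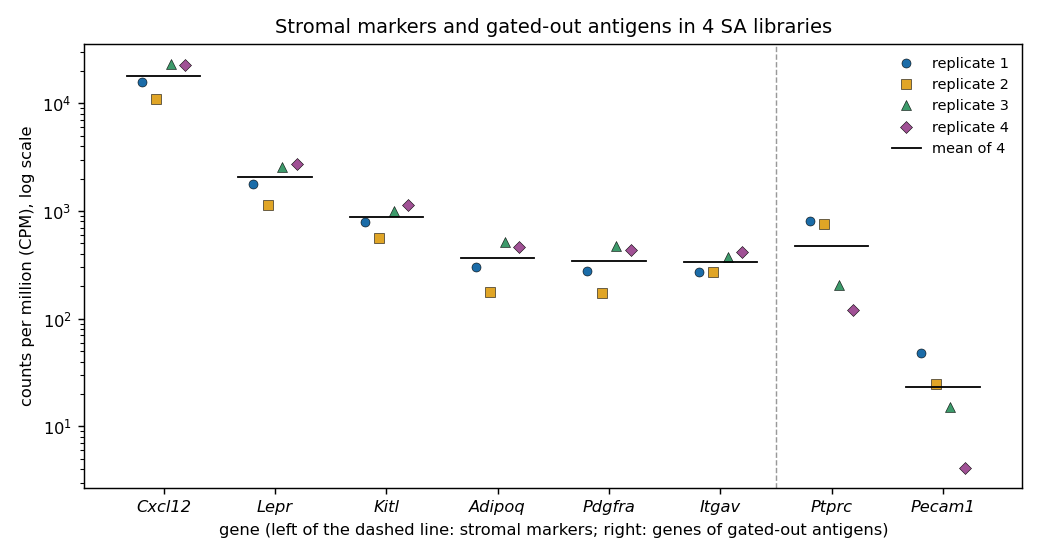
Level in CPM (log axis) of the 6 stromal markers and of the genes of 2 gated-out antigens in each of 4 SA libraries (points) with their mean (bar). Cxcl12 lies between 10866 and 23124 CPM, and Ptprc and Pecam1 are lower in replicates 3 and 4 than in replicates 1 and 2.

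Per length, the 30 leading protein-coding genes mixed stromal and blood cell products. The 2 highest were S100a9 (72455 ± 46440.5 TPM) and S100a8 (38391 ± 24109 TPM), the calprotectin subunits of neutrophils, and Ngp, Lyz2, Retnlg, Camp and Lcn2, all neutrophil or myeloid granule genes, were also among the 30. The third was Spp1, osteopontin, at 22066 ± 17314 TPM, and the fourth B2m, the light chain of class I MHC, at 13931 ± 3318 TPM. Cxcl12 followed at rank 5. Of bone and matrix genes the list held Mmp13 (collagenase 3, 7719 TPM), Ibsp (bone sialoprotein, 6898 TPM), Sparc (osteonectin, 4594 TPM), Col1a1 (3919 TPM), Tnc (tenascin C, 3833 TPM), Bgn (biglycan, 3195 TPM) and Mgp (matrix Gla protein, 2885 TPM). Other secreted products were Igfbp5 and Igfbp7, which bind insulin-like growth factors, Gas6, a ligand of TAM receptors, Serping1, the C1 inhibitor, Cst3 (cystatin C), and the selenoproteins Gpx3 and Selenop. Gpx3 was at 1469, 866, 2713 and 3371 CPM and Selenop at 1632, 1359, 2086 and 2727 CPM, both lowest in replicate 2 and highest in replicate 4.

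**Figure D3:**
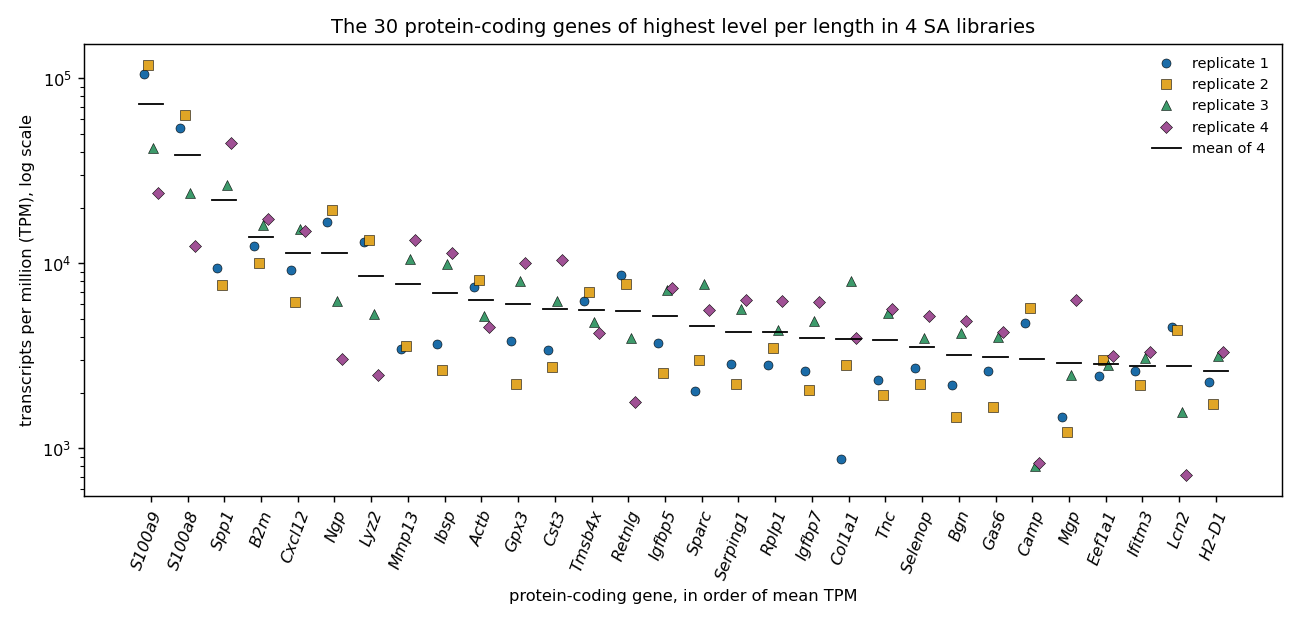
Level per length in TPM (log axis) of the 30 protein-coding genes with the highest mean in the 4 SA libraries (points) with their mean (bar). The neutrophil genes S100a9, S100a8, Ngp, Lyz2, Retnlg, Camp and Lcn2 are lower in replicates 3 and 4 than in replicates 1 and 2, whereas Cxcl12, Spp1, Ibsp, Mmp13 and Igfbp5 are higher there.

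Of 25 markers of CXCL12-abundant reticular cells in the table, the 6 above included, 24 were detected in all 4 libraries and 23 had a mean of at least 100 CPM. Cxcl12 alone made up 47.03% of the summed level of the list, which was 33625, 23029.5, 48544 and 49085 CPM. After Cxcl12, the highest per length were Igfbp5 (4752, 3285, 8038 and 8133 CPM, rank 15), Gas6 (1413, 917, 1880.1 and 2003 CPM, rank 24), Esm1, which encodes the proteoglycan endocan (778, 471, 824 and 932 CPM, rank 38), and Hp, haptoglobin (589, 349, 509.8 and 650.4 CPM, rank 42). Vcam1, the adhesion molecule that binds integrin alpha 4 beta 1 on blood cells, was at 879, 849, 1006 and 909 CPM and varied least of the list. The marker not detected throughout was Nes, the intermediate filament nestin, at 0.887, 0.108, 5.81 and 2.20 CPM. Lipoprotein lipase (Lpl, 1123 ± 433 CPM), the BMP antagonist Grem1 (251 ± 77.3 CPM), the chemokine Cxcl14 (266 ± 99.01 CPM) and Angpt1, a ligand of TIE2 (120.1 ± 28.3 CPM), were present throughout. Of the 24 with at least 10 CPM, 22 were lowest in replicate 2 and the other 2 in replicate 1, whereas 27.99% of all 9485 genes at that level were lowest in replicate 2.

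Of 30 factors with which niche cells act on blood stem and progenitor cells, 22 were detected in all libraries. Below Spp1, Cxcl12, Gas6, Kitl and Vcam1 came Csf1, the macrophage growth factor, at 367, 286, 699 and 753 CPM (rank 185) and Bmp4 at 81.6, 77.4, 153 and 234 CPM (rank 356). Igf1 was at 415, 362, 472 and 428 CPM with a CV (SD over mean) of 0.108, and the other CSF1 receptor ligand, Il34, at 50.2, 43.2, 77.4 and 102 CPM. The lymphoid cytokine Il7 was at 65.3, 37.9, 76.5 and 102 CPM and Il15 at 33.7, 33.5, 32.2 and 29.8 CPM, whose CV of 0.0554 was the lowest of the list. The osteoclast factor RANKL (Tnfsf11) was at 15.1, 18.3, 18.7 and 46.3 CPM and its decoy receptor osteoprotegerin (Tnfrsf11b) at 5.77, 2.48, 4.06 and 6.98 CPM. Il6 was at 16.05, 23.2, 0.264 and 0.0360 CPM, which is above 10 CPM in replicates 1 and 2 and under 1 CPM in replicates 3 and 4. Il11 was at 13.6, 0, 0 and 0 CPM, with counts in replicate 1 only. Thrombopoietin (Thpo, 0.282, 0, 0.396 and 0 CPM) and Dlk1 (0.0807, 0, 0 and 0.0720 CPM) were at or near 0.

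The transcription factors of the stromal list were led per length by Ebf3 at 1027, 676, 1129.6 and 1463 CPM (rank 142), followed by Klf6 (439.9, 400.3, 326 and 289 CPM), Foxc1 (340.5, 247, 549 and 471 CPM), Runx1 (706, 533, 824 and 849 CPM) and Zeb2 (1192, 1022, 1147 and 1254 CPM). Of the 30, 27 were detected in all libraries. Runx2, needed for osteoblasts, was at 423, 224, 381 and 471 CPM, Ebf1 at 384, 295, 388 and 401 CPM and the mesenchymal factor Prrx1 at 226, 144, 381 and 377 CPM. The osteoblast factor Sp7 (osterix) was at 35.0, 37.1, 106 and 69.04 CPM, and the adipocyte factors Cebpa and Pparg at 41.5, 37.4, 57.7 and 40.7 and 33.5, 45.1, 28.2 and 68.4 CPM. Sox9, the cartilage factor, was low at 9.64, 4.56, 9.54 and 5.62 CPM, the hedgehog factor Gli1 was at 4.03, 0, 3.56 and 4.75 CPM and Osr2 was at 0 in 3 libraries. Zfp423 was at 19.1, 8.91, 67.1 and 61.4 CPM, which is low in replicates 1 and 2 and higher in 3 and 4. Runx1, Zeb2 and Ebf1 are also used by blood cells, and their part from such cells was not tested.

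Of 33 receptors, 30 were detected in all libraries. After Lepr, the LIF receptor Lifr had the highest level per length, at 1478, 990.2, 2864 and 3251 CPM (rank 72). Most receptors of the list, 19 of the 30 with at least 10 CPM (63.3%), were lowest in replicate 2, against 27.99% of all genes at that level. The partner chain Il6st was at 430.0, 298, 568 and 529 CPM and the oncostatin M receptor Osmr at 179, 134, 347 and 389 CPM. Pdgfrb was at 439, 314, 584 and 662 CPM, betaglycan (Tgfbr3) at 434, 259, 621 and 601 CPM, the IL-1 receptor Il1r1 at 424, 217, 594 and 511 CPM and the growth hormone receptor Ghr at 349, 214, 515 and 469 CPM. These 4 kept the same order, lowest in replicate 2 and then in replicate 1. Fgfr2 was at 381, 221, 618 and 616 CPM, with 129, 53.6, 168 and 173 CPM for Fgfr1, and per length (229.7 against 68.3 TPM) Fgfr2 was the higher in the mean. The receptor of parathyroid hormone, Pth1r, was at 66.5, 57.9, 155 and 177 CPM. Ifngr1 and Tlr4 were nearly level between libraries, at 172, 219, 194 and 179 and 70.7, 67.2, 69.6 and 56.8 CPM. The adrenergic receptor Adrb3, which carries sympathetic signals to the niche, was at 2.14, 0, 0 and 0 CPM, and the nerve growth factor receptor Ngfr was at 0.484, 0.252, 0.231 and 0 CPM.

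Osteoblast lineage genes were abundant, with 22 of 25 detected in all libraries and a summed level of 13988, 17808, 45749.7 and 42599 CPM. Spp1 was at 3295, 2691, 8124 and 13597 CPM, Ibsp at 1603, 1182, 3824 and 4321 CPM and Mmp13 at 1958, 2035, 5208 and 6603 CPM, all highest in replicate 4. Col1a1 and Col1a2, the chains of type I collagen, were at 1229, 3945, 9794 and 4786 and 2351, 4006, 9505 and 5594 CPM, highest in replicate 3. Alpl, the bone phosphatase, was at 179.9, 192, 484 and 343 CPM, and osteocalcin (Bglap) at 7.70, 39.2, 146 and 50.04 CPM, with the near-identical Bglap2, whose reads may be split with it, at 6.37, 26.99, 88.9 and 42.2 CPM. The early osteocyte genes Dmp1 (32.7, 27.3, 133 and 119.8 CPM) and Phex (144, 95.7, 332 and 266 CPM) were present, whereas sclerostin (Sost), a product of mature osteocytes, was at 0.121, 0.0359, 0 and 0 CPM. Wif1, an inhibitor of Wnt ligands, was at 134, 71.4, 369 and 141 CPM, highest in replicate 3. Of the 20 members with at least 10 CPM, 11 were lowest in replicate 1 and 9 in replicate 2. Over all 9485 genes at that level, 19.2% were lowest in replicate 1 and 27.99% in replicate 2. The summed level was thus lowest in replicate 1 for the osteoblast list and in replicate 2 for the CXCL12-abundant list, and both sums were higher in replicates 3 and 4.

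Of 44 collagen chains, 28 were detected in all libraries, and the list summed to 6448, 11331, 25190.3 and 15863 CPM. After type I, the highest per length were Col8a1 (529, 336, 786 and 532 CPM), Col12a1 (482, 568, 988 and 1066 CPM), Col6a1 (166, 130.4, 233 and 266 CPM) and Col6a2 (304, 263, 332 and 431 CPM). Type III collagen (Col3a1), the main collagen of reticular fibres, was at 242, 510.2, 297 and 395 CPM (rank 708), highest in replicate 2. Col1a1 and Col3a1 thus differed in the library with the highest level. The basement membrane chain Col4a1 was at 216, 159, 357 and 369 CPM and Col4a2 at 109, 139, 119 and 145 CPM. The cartilage chain Col2a1 was at 54.6, 129, 349 and 266 CPM, although aggrecan (Acan, 0.161, 0.0719, 1.35 and 0.108 CPM), Sox9 and matrilin 1 (Matn1, at 0 in all libraries) were low or not detected. Col9a1 and Col28a1 had no count.

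Among other matrix genes, Tnc was at 3875, 3252, 7756 and 8119 CPM, Sparc at 1648, 2426, 5428 and 3931 CPM and Bgn at 2866, 1943, 4779 and 5473 CPM. The small leucine-rich proteoglycans Ogn (506, 341, 740.2 and 824 CPM), Lum (208, 189, 399 and 389 CPM) and Dcn (589, 493, 846 and 835 CPM) followed Bgn per length. Fibrillin 1 (Fbn1) was at 953, 653, 1198 and 1291 CPM and Fbln5, an elastic fibre protein, at 549, 338, 719 and 703 CPM. Fibronectin (Fn1, 992, 987, 605 and 617 CPM) and thrombospondin 1 (Thbs1, 706, 969, 321 and 219 CPM) went the other way from most of the list and were higher in replicates 1 and 2, which also held more of the blood cell genes. Macrophages and platelets express these 2 genes, and their part was not tested. Of enzymes and inhibitors, Serpine2 (protease nexin 1) was at 1744, 1459, 3743 and 4841 CPM, Lox, which crosslinks collagen, at 516, 349, 932 and 1090.4 CPM, Timp2 at 385, 374, 517 and 607 CPM, and Mmp9, a gelatinase of neutrophils and osteoclasts, at 377, 438, 175 and 97.7 CPM. Timp1 was at 33.2, 38.99, 75.5 and 205 CPM and Mgp at 373, 313, 547 and 1391 CPM, both highest in replicate 4.

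Of 25 adipogenic and lipid genes, 19 were detected in all libraries, 6 had a mean of at least 100 CPM and 3 had no count in any library. Adipoq, Apoe (326, 382, 508 and 450.0 CPM), Agt (angiotensinogen, 223, 163, 353 and 369 CPM) and Lpl (903, 621, 1477 and 1493 CPM) led the list per length. The fatty acid desaturase Scd1 was at 105, 81.9, 203 and 199 CPM and the fatty acid carrier Fabp4 at 43.2, 42.5, 12.8 and 23.2 CPM. Of the lipid droplet coat genes, Plin2, which most cells use, was at 52.8, 53.4, 20.1 and 23.6 CPM and Plin4 at 2.50, 1.006, 3.83 and 0.936 CPM, whereas Plin1 of adipocytes was at 0 in 3 libraries and at 2.88 CPM in replicate 4. The 3 with no count were Cidec, another droplet gene, and the secreted hormones leptin (Lep) and adipsin (Cfd). Plin2, Acsl1 (185, 172, 24.9 and 39.7 CPM), Dgat2 (21.5, 16.7, 3.76 and 2.38 CPM) and Cd36 (38.95, 33.8, 7.56 and 4.93 CPM) were higher in replicates 1 and 2, as were the blood cell lists, whose part in these 4 genes was not tested.

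Lists of other stromal lineages were lower. Pericyte and smooth muscle genes summed to 1368, 1406, 1819 and 1851 CPM, of which Pdgfrb made up 31.02%, with Rgs5 at 398, 475, 359 and 188 CPM, Abcc9 at 135, 179, 238 and 222 CPM and smooth muscle actin (Acta2) at 28.95, 44.1, 44.2 and 109 CPM. Of fibroblast genes, S100a6 (227, 234, 108 and 138 CPM), S100a4 (50.3, 49.2, 30.9 and 24.9 CPM) and gelsolin (Gsn, 109.9, 163, 169 and 137 CPM) led per length, whereas Ly6a, which encodes the SCA-1 antigen of periarteriolar and progenitor stroma, was at 20.7, 10.4, 5.84 and 6.95 CPM and Cd34 at 2.34, 1.51, 1.68 and 2.84 CPM. Dpt, Clec3b and Sema3c were each under 0.6 CPM in every library. Of Schwann cell genes, which the gate could hold, Sox10 was at 0, 0.287, 0 and 0 CPM and Foxd3 at 0. Pmp22 (148, 103, 204 and 321 CPM) and S100b (13.1, 7.87, 53.8 and 64.6 CPM) of that list are not restricted to Schwann cells.

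Cxcl12 made up 96.2% of the summed level of 38 chemokine genes. Cxcl14 came next per length (268, 132, 369 and 295 CPM), and Cx3cl1 was at 46.1, 25.4, 39.4 and 52.7 CPM. Cxcl2 (194, 167, 49.7 and 15.4 CPM), Ccl3 (58.8, 61.1, 24.2 and 4.93 CPM), Ccl4 (46.98, 21.5, 5.25 and 1.08 CPM) and Ccl6 (54.4, 64.8, 20.3 and 8.32 CPM), which myeloid cells express, were highest in replicates 1 and 2, and 8 chemokine genes had no count in any library. Of 21 complement genes, Serping1 was highest per length, at 1409, 1108, 2435 and 2733 CPM (rank 17). C3, the central component, was at 595, 869, 678 and 569 CPM, C4b at 350.4, 217, 502 and 467 CPM, and the proteases C1s1 and C1ra at 119, 89.5, 159 and 173 and 87.7, 55.98, 164 and 150.0 CPM. Their binding partners C1qa and C1qb, which macrophages make, were at 13.2, 19.4, 3.79 and 1.62 and 28.4, 103, 25.05 and 13.4 CPM.

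Blood cell genes were detected in every library in spite of the gate on CD45 and Ter119. Neutrophil and granule genes summed to 39104, 43745, 13535 and 7181 CPM, with 24 of 25 detected in all libraries, and made up 2.59% of counts in the mean. S100a9 was at 11639, 13277, 4074 and 2317 CPM, Ngp, a granule protein, at 4355, 5104, 1426 and 685 CPM and Lyz2 at 3658, 3775, 1297 and 605 CPM. Each was at its lowest in replicate 4, with 5.73, 7.45 and 6.24 times as much in the highest library as in the lowest. All 18 pan-leukocyte genes were detected in all libraries, and they summed to 5033, 5396, 1622 and 909 CPM. B lineage genes summed to 2465, 1626, 327 and 204 CPM, highest in replicate 1. They were led by the immunoglobulin chain Ighm at 1005, 499, 69.9 and 39.3 CPM, with the class II chaperone Cd74 at 296, 329, 27.9 and 39.9 CPM and Pax5, the B cell factor, at 96.6, 76.9, 25.2 and 7.67 CPM. Monocyte and macrophage genes summed to 1326, 1784, 602 and 315 CPM, with Mpeg1 at 303, 319, 129 and 59.4 CPM, Csf1r at 107, 124, 30.7 and 27.1 CPM and Marco at 0.

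Erythroid genes summed to 2833, 2970.0, 1712 and 1569.8 CPM, with 22 of 23 detected in all libraries. The carbonic anhydrase Car2 was at 428, 464, 359 and 302 CPM, Car1 at 219.8, 233, 210.0 and 193 CPM and the anion exchanger band 3 (Slc4a1) at 472, 461, 147 and 109.8 CPM. Car1 was nearly level between libraries, whereas Slc4a1 was at least 3 times as high in replicates 1 and 2 as in 3 and 4. The labels say that the human construct replaces the mouse major and minor beta globin genes. The 10 mouse globin genes summed to 73.2, 51.6, 22.8 and 21.2 CPM, led by the embryonic Hba-x at 47.8, 24.5, 11.3 and 14.1 CPM (57.9% of the sum), with Hba-a1 at 17.5, 17.3, 5.94 and 4.21 CPM and Hbb-bs at 1.90, 1.76, 2.01 and 0.468 CPM. Human globin genes were not analysed here, and reads of the near-identical Hba-a1 and Hba-a2 could be split between them. The mice carry human alpha globin on both alleles, so the Hba-a1 level need not stand for mouse alpha globin. The source of its reads was not tested.

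Megakaryocyte and platelet genes summed to 452, 673, 101 and 89.8 CPM, and only 2 of 15 were detected in all libraries. Itgb3 alone made up 35.3% of the mean sum, and which cells it came from was not tested. The platelet chemokines Pf4 and Ppbp were at 154, 51.6, 7.09 and 3.71 and 60.7, 176, 0.792 and 0.648 CPM, so that replicate 1 held most Pf4 and replicate 2 most Ppbp. Mast cell and basophil genes summed to 517, 536, 116 and 63.7 CPM, mainly from histidine decarboxylase (Hdc, 331, 344, 102 and 56.8 CPM). The mast cell proteases Cma1, Mcpt4 and Tpsb2 had no count, whereas basophil Mcpt8 was at 61.5, 84.8, 0.858 and 0 CPM. T and natural killer cell genes summed to 96.3, 122, 65.6 and 53.9 CPM, dendritic cell genes to 164, 247, 88.3 and 85.3 CPM and stem and progenitor cell genes to 406, 432, 228 and 155 CPM, with Kit, the receptor of the Kitl product, at 35.6, 29.4, 10.5 and 4.21 CPM. The osteoclast genes Calcr and Oscar had no count in any library and Acp5 was at 9.52, 33.5, 6.27 and 2.52 CPM.

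Endothelial genes were low, with a sum of 274, 206, 88.96 and 99.8 CPM, and 8 of 22 were detected in all libraries. Eng, which stroma also expresses, was the highest at 37.7, 36.9, 41.1 and 63.2 CPM, whereas VE-cadherin (Cdh5) was at 3.75, 2.73, 0.231 and 1.37 CPM, claudin 5 (Cldn5) at 3.59, 0.144, 0 and 0.0360 CPM and Kdr, the main VEGF receptor, at 19.4, 9.34, 0.0330 and 0.684 CPM. Sinusoidal Stab2 was at 29.9, 12.002, 1.45 and 0 CPM. These defining markers were thus highest in replicate 1 and at most 1.37 CPM in replicate 4. As a gauge of background, 25 genes of liver, muscle, brain, gut, pancreas and skin summed to 20.5, 7.04, 8.05 and 11.7 CPM. Of these, 12 had no count in any library, among them albumin (Alb), insulin 2 (Ins2), keratins 5 and 14 (Krt5, Krt14) and Syt1.

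**Figure D4:**
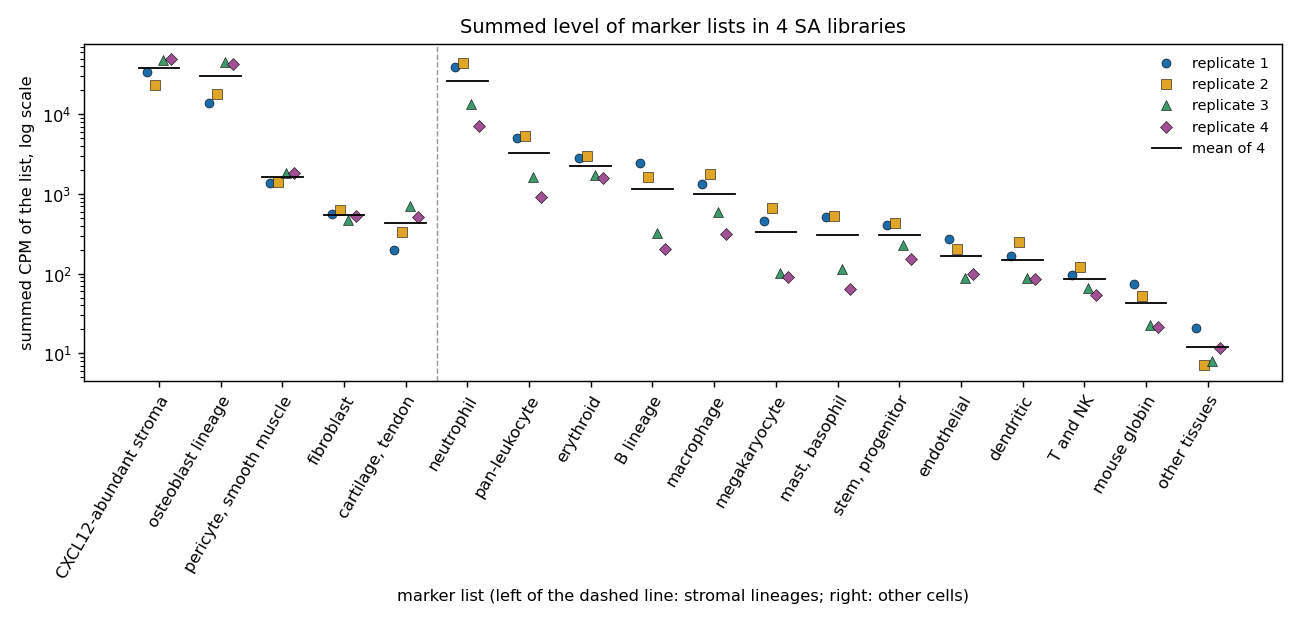
Summed level in CPM (log axis) of 18 marker lists in each of 4 SA libraries (points) with their mean (bar). The lists of blood and endothelial cells are higher in replicates 1 and 2 than in 3 and 4, the osteoblast list is higher in replicates 3 and 4, and the list of other tissues lies between 7.04 and 20.5 CPM.

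Genes that mark the state of cells varied to different degrees between libraries. Immediate early genes, which dissociation of tissue can induce, summed to 6833, 5332, 5034 and 5427 CPM, and Egr1 (1454, 774, 1077 and 1229 CPM), Fos (612, 539, 577 and 561 CPM) and Jun (512, 398, 494 and 486 CPM) ranked 52, 57 and 109 per length. Heat shock and chaperone genes summed to 3090.0, 2797, 3233 and 2852 CPM, led by Hsp90ab1 (874, 980.3, 851 and 693 CPM) and the endoplasmic reticulum chaperone Hspa5 (876, 523, 842 and 707 CPM), whereas the inducible Hspa1a was at 15.5, 10.5, 14.02 and 31.03 CPM. Interferon-induced genes summed to 1540.0, 1537, 932 and 1146 CPM, of which Ifitm3 (379, 318, 387 and 415 CPM) made up 29.1%. Rsad2, an antiviral enzyme, was at 285, 271, 46.8 and 27.8 CPM, higher in replicates 1 and 2. All 30 cell cycle genes were detected in all libraries and summed to 4167, 4659.5, 2138 and 2285 CPM. Mki67 was at 1521, 1709, 688 and 629 CPM and Top2a at 462, 583, 215 and 242 CPM, both higher in replicates 1 and 2. The neutrophil and B lineage lists were higher in the same libraries, and their part in these levels was not tested.

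The spread between libraries was wide for most genes. Over the 9485 genes averaging 10 CPM or more the median CV was 0.346 (quartiles 0.223 and 0.508), and it was 0.344 after the counting variance was taken off, so that counting error added little. At a mean of at least 100 CPM (1708 genes) the median was 0.236. Of the 9485 genes, 394 (4.15%) had a CV under 0.1 and 178 (1.88%) a CV over 1. Among lists, median CVs were lowest for mitochondrial transcripts (0.111), cytosolic ribosomal proteins (0.129), chaperones (0.164) and genes used in most cells (0.222). They were 0.298 for stromal transcription factors, 0.320 for niche factors and 0.328 for CXCL12-abundant cell markers, beside 0.346 for all genes of at least 10 CPM. At a mean of at least 50 CPM the median was 0.259 for all genes and 0.255 for the transcription factors. It was higher for the niche factors (0.318) and the CXCL12-abundant markers (0.328). Without replicate 2 the CXCL12-abundant markers had 0.208, the niche factors 0.211 and the receptors 0.207 in place of 0.325. Median CVs were 0.541 for collagens and 0.573 for the osteoblast list, 0.735 for neutrophil, 0.900 for B lineage and 1.19 for megakaryocyte genes. The megakaryocyte value rests on 7 genes, and only 2 of the 15 listed were detected in all libraries. Members near 0 in some libraries, such as Ppbp, reach a mean of 10 CPM only through the others. Such a filter in itself favours a high CV.

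The steadiest protein-coding genes with at least 50 CPM were Ubap2l (265, 261, 263 and 261 CPM, CV 0.00738), Cs, which encodes citrate synthase (160.4, 159, 156 and 156 CPM), and Atp5b, the beta subunit of the mitochondrial ATP synthase (417, 414, 426 and 409.9 CPM). Hif1a, the hypoxia factor (124, 130.1, 127 and 129 CPM), Rpl19 (103, 101, 105 and 108 CPM) and Glul, glutamine synthetase (171, 160.1, 167 and 162 CPM), were also among the 20 with the smallest CV. The 20 with the largest CV included blood cell genes such as Ppbp, Pf4, Pou2af1, Laptm5 and Cd74, and the bone and matrix genes Bglap, Timp1 and Sparcl1 (21.8, 16.4, 54.6 and 150.0 CPM). A further 4 were high in 1 library: Rundc1 (1755, 12.8, 11.7 and 10.9 CPM), Ddx52 (20.6, 58.0, 247 and 21.3 CPM), Reps1 (28.7, 179, 32.7 and 25.8 CPM) and Shoc2 (82.1, 105, 581 and 117 CPM). Commonly used reference genes differed in this respect, with Ppia at 239, 224, 224 and 209.8 CPM (CV 0.0529) and Eef1a1 at 1306, 1599, 1308 and 1446 CPM (CV 0.0984), whereas Actb was at 4234, 4638, 2570.1 and 2234 CPM (CV 0.349) and Gapdh at 168, 192, 88.5 and 88.9 CPM (CV 0.399), both higher in replicates 1 and 2.

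Most of the CXCL12-abundant markers kept nearer to a fixed ratio to Cxcl12 than to a fixed CPM. With each gene given as a percent of Cxcl12 in the same library, the median CV of the CXCL12-abundant list was 0.114 over 23 genes, against 0.334 in CPM, and it was smaller for 21 of the 23. Over all 9484 other genes of at least 10 CPM the same median was 0.485 as a percent of Cxcl12 and 0.346 in CPM, and it was smaller for 26.7% of them. Lepr was 11.2, 10.5, 11.2 and 12.03% of Cxcl12 in replicates 1 to 4, Kitl 4.94, 5.13, 4.37 and 5.06%, Pdgfra 1.75, 1.61, 2.03 and 1.94%, Foxc1 2.14, 2.27, 2.37 and 2.08% and Gas6 8.86, 8.44, 8.13 and 8.85%. Fstl1, a secreted follistatin-like protein, had the smallest CV of the 227 stromal, niche and matrix list genes for which the ratio was taken, at 4.501, 4.36, 4.59 and 4.55% (CV 0.0227). These ratios come from counts not corrected for length and show only how the genes moved relative to Cxcl12. Vcam1 did not keep such a ratio, at 5.52, 7.81, 4.35 and 4.02%, and was highest against Cxcl12 in replicate 2. Nor did Ebf1, at 2.41, 2.72, 1.68 and 1.77%, with a CV of 0.234 against 0.132 in CPM. The CV of the sorted antigen gene Itgav barely changed, at 0.216 against 0.219 in CPM (1.70, 2.52, 1.61 and 1.85% of Cxcl12). The median CV of the ratio was 0.299 for the transcription factors, against 0.298 in CPM, and smaller for 12 of 25. The CV was also smaller as a ratio for most genes of several other lists. Its median was 0.265 against 0.318 for niche factors (14 of 19 genes smaller) and 0.365 against 0.573 for the osteoblast list (19 of 20). Collagens had 0.397 against 0.541 (21 of 24) and matrix glycoproteins 0.275 against 0.437 (33 of 40). A smaller CV as a ratio was thus not limited to the CXCL12-abundant markers. It did not hold for most adipogenic and lipid genes, of which 5 of 18 (27.8%) were smaller, near the 26.7% over all genes. For ribosomal proteins the median CV of the ratio was 0.373, above their 0.129 in CPM. Col1a1 ran from 7.71% to 42.4% of Cxcl12 and Spp1 from 20.7% to 60.1%.

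**Figure D5:**
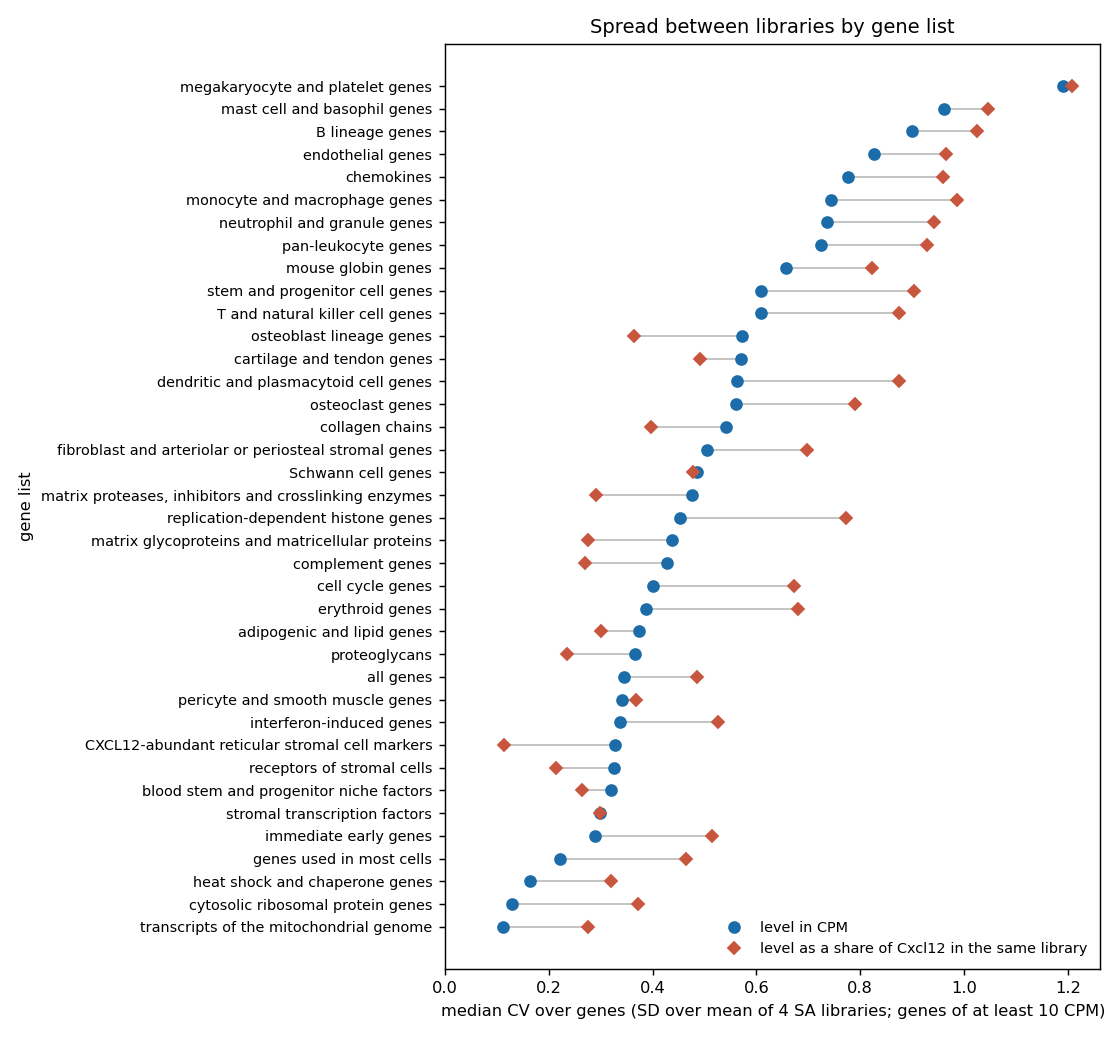
Median CV over 4 SA libraries (SD over mean, genes of at least 10 CPM) of each gene list, for levels in CPM (circles) and for levels as a share of Cxcl12 in the same library (diamonds). For the CXCL12-abundant list the diamond, at 0.114, lies left of the circle, at 0.328, and for ribosomal proteins and mitochondrial transcripts it lies right of it.

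Between pairs of libraries, Spearman's rho across the 12173 genes detected in all 4 was 0.891 for replicates 1 and 2 and 0.894 for replicates 3 and 4, and 0.792 to 0.853 for the other 4 pairs. Genes are not independent replicates, and these values describe the libraries only. The share of genes that differed over 2-fold was 23.5% and 22.4% for these pairs and 30.1% to 36.0% in the others. The top 10 genes took 22.7% to 26.6% of counts and the top 100 34.7% to 41.04%, and without mitochondrial transcripts the top 100 took 20.9% to 26.7% of what remained.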

How the data were processed

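Marrow stroma of 4 SA samples was measured by RNA-seq, and whole-number raw counts per gene symbol were deposited as 1 table of 8 columns, 1 per library with both lanes joined. The 4 SA columns were used and the 4 other columns left out. Per the submitters' processing notes, bcl2fastq, STAR, featureCounts and DESeq2 were used with mm10 and GRCm38, and neither versions nor annotation nor the use of strand is stated there. Overlapping and near-identical genes may therefore share reads. From the counts, CPM over the library total and TPM over nuclear protein-coding genes were computed (Python 3.11.15, pandas 2.3.3), with union-exon lengths and gene classes of GENCODE M21 matched by symbol to 91.7% of genes and 99.3% of counts. That gene set for TPM was chosen after seeing that very short RNA genes led a scale over all genes. A gene was detected at 1 CPM or more. CVs were taken over genes averaging 10 CPM or more, and the script was tested on simulated data. Intervals are 95% Wilson intervals and the floor is 3 counts, and both cover counting error only, as the reads carry no molecular identifiers. Alternatives used TMM and RLE factors (edgeR 4.0.16, R 4.3.3), other denominators, detection rules and lengths, and each library left out. Members and the 39 gene lists were chosen with earlier results of these data known. Named were list members, the 30 genes of highest TPM and of highest CPM, and the 20 protein-coding genes of smallest and of largest CV with at least 50 CPM. Some list members are not reported here.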

Additional observations from a re-analysis of the deposited data

Results flagged for a closer look

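Of 256 results examined, 19 (7.42%) had 1 library farther from the others than Dixon's 95% critical value for 4 samples allows. For independent normal values chance alone gives this in about 1 in 20 groups. That rate does not apply here, since CPM can be skewed and genes count again in their lists. A gene with counts in 1 library only exceeds the value by construction. Several of the flagged genes were named because of their large CV or for counts in 1 library, so their being here is no independent sign.

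Replicate 1 was far above the others for Rundc1 (1755 CPM, others 10.9 to 12.8), for the B lineage segments Igkv15-103 (159 CPM) and Ighv7-1 (49.7 CPM), and for 3 genes near the floor elsewhere: the cytokine Il11 (13.6 CPM), claudin 5 (Cldn5, 3.59 CPM) and the adrenergic receptor Adrb3 (2.14 CPM). In replicate 2, Reps1 (179 CPM, others 25.8 to 32.7), Kcnq3 (164 CPM), the macrophage gene C1qb (103 CPM, others 13.4 to 28.4) and Ear6 (45.4 CPM) were high. Ebf1 of the stromal transcription factor list (295 CPM, others 384 to 401) was low there. In replicate 3 the high values were Shoc2 (581 CPM, others 82.1 to 117), Ddx52 (247 CPM, others 20.6 to 58.0) and aggrecan (Acan, 1.35 CPM, others 0.0719 to 0.161). Replicate 4 stood above the others for Nop9 (159 CPM), Eng (63.2 CPM, others 36.9 to 41.1), RANKL (Tnfsf11, 46.3 CPM, others 15.1 to 18.7) and perilipin 1 (Plin1, 2.88 CPM, others at 0), and below them for Hbb-bs (0.468 CPM, others 1.76 to 2.01). The summed lists, class shares and library totals held no such value.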

How the results depend on the processing

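No paired analysis was possible because the libraries form 1 group and no test was made. With TMM or RLE factors, and with blood list genes left out of the denominator, no level of the 6 markers, none of the 15 summed lists of other cells and no median CV moved beyond 1 SD or 1.5 times. Class shares were recomputed only with each replicate left out. That cannot move their mean by 1 SD, so how they depend on the processing was not tested. With mitochondrial transcripts out of the denominator Itgav was at 414 CPM, and with protein-coding genes as the denominator Itgav was at 440.1 and Kitl at 1153 CPM. With no length Cxcl12 ranked 1, Adipoq 227 and Itgav 260 among protein-coding genes, and among all genes with a length, a setting chosen after seeing the data, Cxcl12 ranked 13. At 1 CPM in any library 18984 genes were detected. The top 1, 10, 100 and 1000 genes took 12.2%, 25.05%, 38.0% and 61.5% of all counts, but 2.33%, 10.2%, 23.8% and 52.4% without mitochondrial transcripts and 2.47%, 9.69%, 22.7% and 52.5% among protein-coding genes.

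As a share of Cxcl12, a scaling also chosen after seeing the data, median CVs fell to 0.114 for CXCL12-abundant markers, 0.214 for receptors, 0.236 for proteoglycans, 0.270 for complement, 0.275 for matrix glycoproteins, 0.290 for matrix enzymes and 0.365 for the osteoblast list. They rose to 0.276 for mitochondrial transcripts, 0.319 for chaperones, 0.373 for ribosomal proteins, 0.465 for genes used in most cells, 0.514 for immediate early, 0.525 for interferon-induced, 0.672 for cell cycle, 0.679 for erythroid, 0.772 for histone and 0.874 for dendritic cell genes. With each replicate left out in turn, median CVs ranged from 0.208 to 0.375 for CXCL12-abundant markers, 0.211 to 0.363 for niche factors and 0.207 to 0.348 for receptors. Each of these was lowest without replicate 2. The range was 0.353 to 0.647 for osteoclast and 0.275 to 0.782 for T and natural killer cell genes, both lowest without replicate 4. The cause was not tested. The osteoclast medians rest on only 4 genes, and those of T and natural killer and of dendritic cells on 3 each.

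Of 810 recomputed values of markers, lists, shares, ranks and CVs, the remaining 772 moved by less than 1 SD of the libraries or 1.5 times. Leaving out 1 of 4 libraries cannot move a mean level or share by 1 SD. Such values are among the 772 and say nothing about stability. Of 201 other named genes, 55 moved by over 1 SD with protein-coding genes as the denominator, 37 without mitochondrial transcripts, 6 without blood list genes, and none under TMM or RLE. A smaller denominator raises every level, so which genes are counted here depends on their spread between libraries. With a replicate left out none of them could move that far, so that setting tested nothing for these genes. Library depth limits genes under about 0.1 CPM, where 3 counts or fewer stand behind a value.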

Other observations

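Few mitochondrial messenger RNAs gave most of the counts of their class. The cytochrome oxidase subunit mt-Co1 was at 5266, 5834, 5348 and 5945 CPM, mt-Cytb at 2603, 2481, 3263 and 3315 CPM and mt-Nd1 at 3113, 2907, 3668 and 3416 CPM, whereas mt-Co2 was at 0.0807, 0, 0.660 and 0.684 CPM, mt-Co3 at 0, 0.0719, 0.0330 and 0 CPM and mt-Atp6 at 0.0807, 1.72, 1.25 and 0.144 CPM. All of these are made from the same polycistronic transcripts, and the cause of the gap was not tested.

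Some genes had nearly all their counts in 1 library. Of genes with at least 10 CPM in the mean, 40 had at least 5 times as much in the highest library as in the next, of which 21 were highest in replicate 2, and 9 had at least 10 times as much. Over all genes at that level, 28.6% were highest in replicate 2. The 40 genes were singled out after their values were seen. Rundc1 was at 1755, 12.8, 11.7 and 10.9 CPM, Kcnq3 at 4.03, 164, 8.45 and 1.80 CPM, Nop9 at 5.52, 8.88, 2.71 and 159 CPM and the eosinophil ribonuclease Ear6 at 1.45, 45.4, 0 and 0.0360 CPM. The immunoglobulin variable segments Igkv15-103 (159, 0.287, 0 and 0 CPM) and Ighv7-1 (49.7, 0, 0 and 0 CPM) had nearly all their counts in replicate 1, where the summed B lineage list was also highest.

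Among genes used in most cells, the glycolytic Gapdh and Pgk1 were at 160.0 and 28.2 TPM, beside 6302 TPM for Actb and 2857 TPM for Eef1a1. Pgk1 was at 14.2, 19.8, 12.5 and 4.79 CPM, lowest in replicate 4.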
